A study of Rattus norvegicus with 20 samples.

Results

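The tubulins described here are 10 of the 17337 gene symbols counted in rat alveolar epithelial monolayers, 5 alpha tubulins (Tuba1a, Tuba1b, Tuba1c, Tuba4a and Tuba8) and 5 beta tubulins (Tubb2a, Tubb2b, Tubb4b, Tubb5 and Tubb6). They were chosen by symbol, with it known that Tuba8 had the largest fall with stretch, so the stretch comparisons of these genes are given as values with no p, and counts past the threshold there are a description. Primary type II pneumocytes of Sprague-Dawley rats were cultured for 4 days on silastic membranes coated with fibronectin, where they become monolayers labelled as type I-like, and RNA was read by QuantSeq, which sequences 1 fragment near the 3′ end of each polyadenylated transcript. S_PI cells received 1 µM GSK2606414, an inhibitor of the stress kinase PERK, for 18 h and were then stretched cyclically for 6 h by 25% of their surface area at 15 cycles per min. NS_PI cells received the inhibitor for 24 h without stretch. S cells received 0.01% DMSO for 18 h before the same stretch, and NS cells received 0.01% DMSO for 24 h without stretch. No DMSO content is recorded for S_PI and NS_PI. Each group had 5 libraries, 1 per animal, each of RNA pooled from 4 monolayers of that animal, and animals 1 to 5 gave all 4 groups.

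Alpha and beta tubulin form the dimer from which microtubules are built, the hollow polymers that carry motor proteins, shape the cell and make up the mitotic spindle and the core of cilia. Vertebrates make several isotypes of each from separate genes, which differ mostly in their acidic tails. When free dimers accumulate, the cell degrades tubulin mRNA that is being translated, so mRNA levels depend also on the state of the polymer. Tuba8 is a divergent alpha tubulin known mainly from testis, muscle and brain.

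Promoter sequences are shown for the alpha tubulins whose stretch differences were the largest or went opposite ways, each as the 250 bases before the start of the gene, 5′ to 3′ on the gene's strand, from RefSeq (GRCr8). All 10 tubulins matched the RefSeq promoter table. Capitals mark CCAAT; no window printed here held it on the other strand, as ATTGG, or held TATAAA.
Tuba8, chr4:156112022-156112271, plus strand: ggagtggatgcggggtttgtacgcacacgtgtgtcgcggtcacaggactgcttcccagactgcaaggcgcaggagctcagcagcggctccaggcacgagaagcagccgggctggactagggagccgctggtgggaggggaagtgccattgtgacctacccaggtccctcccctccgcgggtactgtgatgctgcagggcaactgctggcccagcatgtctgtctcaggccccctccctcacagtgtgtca
Tuba1b, chr7:131972588-131972837, minus strand: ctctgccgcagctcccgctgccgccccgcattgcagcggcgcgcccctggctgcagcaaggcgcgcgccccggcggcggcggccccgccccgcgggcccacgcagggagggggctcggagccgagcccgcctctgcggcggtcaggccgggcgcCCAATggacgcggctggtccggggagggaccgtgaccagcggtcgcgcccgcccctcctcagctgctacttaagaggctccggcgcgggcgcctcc
Tuba1a, chr7:131995820-131996069, minus strand: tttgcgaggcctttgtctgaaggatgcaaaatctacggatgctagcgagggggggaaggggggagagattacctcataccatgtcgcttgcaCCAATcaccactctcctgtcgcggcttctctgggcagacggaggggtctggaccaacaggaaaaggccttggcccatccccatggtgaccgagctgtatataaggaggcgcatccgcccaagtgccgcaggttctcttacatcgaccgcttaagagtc
The Tuba8 window held neither CCAAT nor TATAAA nor GGGCGG (the GC box) on either strand. CCAAT was found, on either strand, in 7 of the 10 tubulin windows (all but Tuba4a, Tuba8 and Tubb2a), against 34% of the 33469 windows of the table. GGGCGG was found in 8 of 10 (all but Tuba8 and Tubb2b), against 30.5% of all windows, and TATAAA in Tubb2a and Tubb4b, against 12.9% of all windows. Tubb4b held 4 copies of CCAAT. None of the 10 windows held GGAATG, the core of a TEAD site (12.1% of all windows), or a CArG box, the site of serum response factor (1.5% of all windows). The G and C content was 64.8% for Tuba8, 80.4% for Tuba1b and 56.8% for Tuba1a, with a median of 51.2% over all windows. A match describes the letters of a window and no more, and RefSeq gives Tuba8 and Tuba1a more than 1 transcript.

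Libraries held 999209 to 3131541 counts assigned to genes, and a count of 3, taken as the detection floor, equalled 1.07 to 3.05 CPM, a gene's counts relative to its library's total after TMM scaling. Markers of type I cells were present, with a mean over 20 libraries of 1827 CPM for Pdpn and 499.7 CPM for Ager, but Aqp5 was at 3.03 CPM. Other cells were present too: Lyz2, of macrophages and also of type II cells, averaged 4920 CPM (summed macrophage and leukocyte markers 1507 to 13622 CPM), Col1a1 5490 CPM and Scgb1a1, of airway secretory cells, 1467 CPM. The endothelial genes Cdh5 and Cldn5 and the globin genes Hba1, Hba2 and Hbb had 0 counts in all libraries. Eng, the 1 endothelial gene tested, averaged 17.7 CPM, and Foxj1, the regulator of ciliated cells, 7.54 CPM. Col1a2 averaged 1.63 CPM beside Col1a1, so a low count of 1 gene is not read as a missing cell type. In such bulk RNA, fewer cells of a type and less RNA per cell cannot be told apart. Records that aligned to several places made up 35.5 to 57.7% of all records and were not counted, and the coding sequences of Tuba1a, Tuba1b and Tuba1c, and those of Tubb2a and Tubb2b, are near copies whose 3′ ends differ more, so the split of reads within these groups is uncertain. RefSeq also lists the name Tubb2b as a synonym of Tubb2a.

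Tuba1b and Tubb5, widely expressed alpha and beta tubulins, had the highest CPM in these cells, and Tuba8 and Tuba1c the lowest. QuantSeq counts do not grow with transcript length, so CPM values of different genes were set side by side. Records that aligned to several places were not counted, and how many each tubulin lost is not known. The order is thus one of counted reads. Over 20 libraries Tuba1b averaged 1266 ± 251 CPM, Tubb5 1055 ± 206 and Tuba1a, the alpha tubulin best known from neurons, 624 ± 161 (SD). Tuba4a, which unlike most alpha tubulins is made without a terminal tyrosine, averaged 218 ± 74.6 CPM and Tubb6, a divergent beta tubulin, 215 ± 67.7 CPM. Tubb2b, prominent in developing neurons, averaged 203 ± 157 CPM, Tubb2a, its close relative, 186 ± 70.6 CPM and Tubb4b, a widely expressed beta tubulin that is also built into cilia, 137 ± 46.9 CPM. Tuba8 averaged 10.6 ± 11.6 CPM. Tuba1c, with 0 to 13 counts per library and a mean of 2.32 CPM, stayed at or near the floor and did not pass the filter on low counts, so 9 of the 10 tubulins were fitted.

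**Figure D1:**
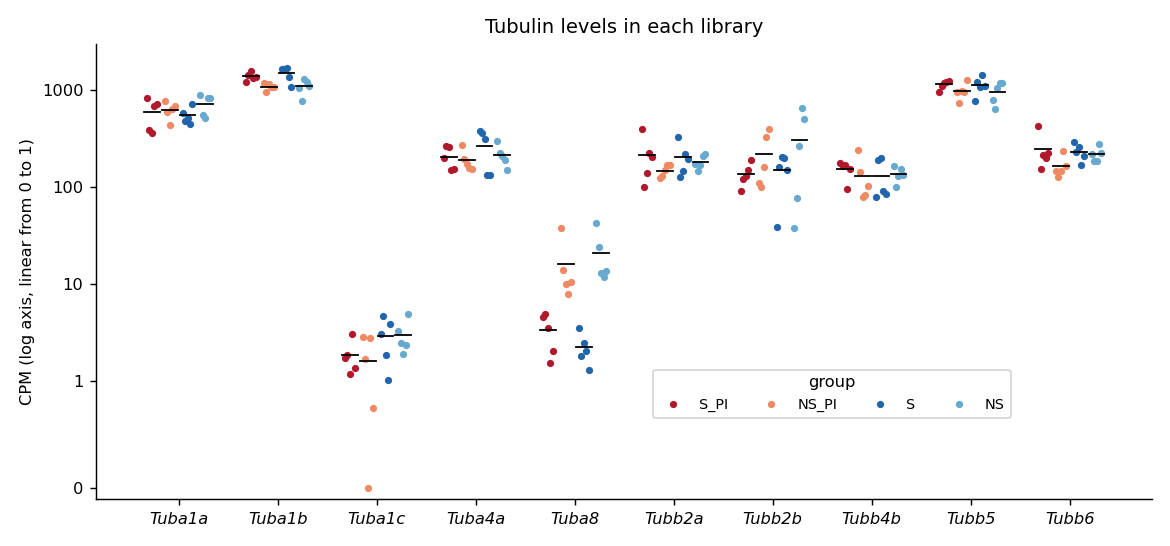
CPM (log axis, linear below 1) of each tubulin in each of 20 libraries, with colours for the 4 groups and a black line at each group's mean (n = 5). Tuba1b, Tubb5 and Tuba1a lie highest, and Tuba8 is the tubulin whose S_PI and S libraries lie clear of its NS_PI and NS libraries.

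In NS cells the order of mean levels was Tuba1b (1095 CPM), Tubb5 (969), Tuba1a (724), Tubb2b (306), Tubb6 (219), Tuba4a (214), Tubb2a (183), Tubb4b (136), Tuba8 (20.9) and Tuba1c (2.96). Neighbours in this order overlapped in their ranges over the 5 animals, except Tubb4b with Tuba8 and Tuba8 with Tuba1c. Even so, Tuba1a lay above Tubb2b, and Tubb2a above Tubb4b, in 5 of 5 animals.

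Tuba8 was 9.57-fold lower in S than in NS cells and 4.45-fold lower in S_PI than in NS_PI cells. It had 3.52, 1.78, 2.47, 2.03 and 1.29 CPM in S cells of animals 1 to 5, against 42.0, 24.2, 13.0, 11.8 and 13.6 CPM in NS cells. Every S library lay below every NS library, and the S libraries lay at or near the detection floor. The log2 change was -3.26 ± 0.33 (SE), the largest fall of 8320 tested genes, and this is the value that chose Tuba8. Among the 6979 genes averaging 10 CPM or more, the next was Ankrd1, a nuclear ankyrin repeat protein, at -2.93. With the inhibitor Tuba8 had 4.58, 4.88, 3.50, 1.52 and 2.04 CPM in S_PI cells, against 37.7, 13.8, 10.02, 7.90 and 10.4 CPM in NS_PI cells. These groups did not overlap either, and the log2 change of -2.15 ± 0.30 was the 34th largest fall of all tested genes, or the 12th when the 6979 genes averaging 10 CPM or more were ranked. Group ranges did not overlap for 7.34% of all tested genes in S against NS and for 13.8% in S_PI against NS_PI.

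The counts behind these levels were small. They were 7, 5, 4, 2 and 2 in S cells, against 91, 49, 21, 20 and 25 in NS cells. With the inhibitor they were 8, 8, 6, 2 and 3 in S_PI cells, against 81, 33, 19, 17 and 14 in NS_PI cells. Summed over animals there were 20 counts in S against 206 in NS cells, and 27 in S_PI against 164 in NS_PI cells. Within single animals the S library was 5.27-fold (animal 3) to 13.5-fold (animal 2) lower than the NS library, with exact binomial 95% intervals of 1.78 to 21.1 and 5.43 to 43.6. The S_PI library was 2.82-fold (animal 2) to 8.22-fold (animal 1) lower than the NS_PI library, with intervals of 1.28 to 7.06 and 3.98 to 19.7. A gene was lower in 5 of 5 animals in 14.2% of all tested genes in S against NS and in 18.1% in S_PI against NS_PI. The binomial intervals cover counting error only. Tuba8 was chosen for its fall with stretch, so they are no test of that fall. Animal 1 had the most Tuba8 in both unstretched groups, and without it the log2 changes were -3.10 in S against NS and -1.77 in S_PI against NS_PI.

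**Figure D2:**
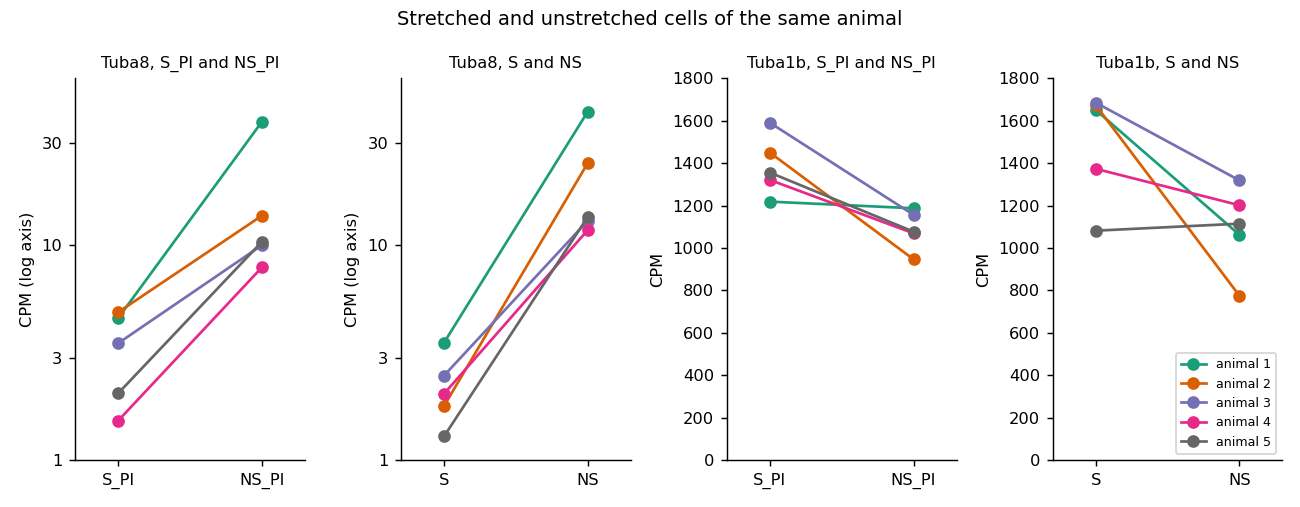
CPM of Tuba8 (log axis) and of Tuba1b (linear axis from 0) in the stretched and unstretched library of each animal, joined by a line per animal. All 10 Tuba8 lines run from a lower stretched to a higher unstretched library, and 9 of 10 Tuba1b lines run the other way.

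Other genes moved beside Tuba8. Acta1, the actin of skeletal muscle, which is a tissue where Tuba8 is known, fell by 1.67 ± 0.30 on the log2 scale in S against NS (edgeR adjusted p = 0.000575) and fell by 2.46 ± 0.33 in S_PI against NS_PI (edgeR adjusted p = 2.26e-05). It was also highest in animal 1, at a mean of 297 CPM against 24.4 to 74.4 CPM in animals 2 to 5. The muscle genes Myh7 and Ckm and the testis genes Prm1 and Tnp1 had 0 counts in every library, and 2 of the 8 genes of that list could be tested. The other, Des, the intermediate filament protein desmin of muscle, went the opposite way: it had a log2 change of 0.37 ± 0.25 in S against NS (edgeR adjusted p = 0.289) and rose by 0.89 ± 0.24 in S_PI against NS_PI (edgeR adjusted p = 0.00859). Summed, the list ranged from 65.3 to 279.6 CPM in S_PI and 61.8 to 537 CPM in NS_PI libraries, and from 48.5 to 488 CPM in S and 57.5 to 567 CPM in NS libraries. Of 10 tested type I cell markers, 4 fell and 1 rose in S against NS. In S_PI against NS_PI 7 of them fell and 2 rose. In each comparison the calls among 9 tested genes typical of macrophages or leukocytes were 4 higher and 0 lower. The 9 tested genes typical of type II cells, the cells first cultured, had 0 calls in either comparison. Beside these, 24.9% of all tested genes were called in S against NS and 30.5% in S_PI against NS_PI. Summed type I markers ranged from 1297 to 5713 CPM in S_PI and 1852 to 6646 CPM in NS_PI, and from 1295 to 5738 CPM in S and 1744 to 6189 CPM in NS libraries. Summed macrophage and leukocyte markers ranged from 2429 to 12705 CPM in S_PI and 1529 to 9795 CPM in NS_PI, and from 1952 to 13622 CPM in S and 1507 to 10313 CPM in NS libraries. Their part in the Tuba8 difference was not tested.

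The other tubulins differed less with stretch than Tuba8. In S against NS, 2 of 9 lay past an adjusted p of 0.05, Tuba8 lower and Tuba1b higher, beside 24.9% of all tested genes. In S_PI against NS_PI, 2 of 9 did, Tuba8 lower and Tubb6 higher, beside 30.5% of all tested genes. The median log2 change of the 9 was 0.08 in S against NS, against -0.01 over all tested genes, and 0.23 in S_PI against NS_PI, against -0.02. Because the choice fixed that Tuba8 was among them, nothing is read from these counts.

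Tuba1b, the main alpha tubulin of most dividing cells, was higher in stretched cells by 0.45 ± 0.14 (SE) without and 0.35 ± 0.14 with the inhibitor, on the log2 scale. Its level was 1651, 1674, 1686, 1374 and 1082 CPM in S cells of animals 1 to 5, against 1062, 775, 1319, 1202 and 1115 CPM in NS cells. It was higher in the S library of 4 of 5 animals, and the groups overlapped through animal 5. In S_PI cells it was at 1219, 1450.2, 1591, 1321 and 1356 CPM, against 1187, 947, 1156, 1069 and 1077 CPM in NS_PI cells. Here it was higher in 5 of 5 animals, as 18.2% of all tested genes were, and the groups did not overlap. Tuba1a, encoded next to it on the same chromosome and nearly the same protein, ran the other way without the inhibitor, at 587, 477, 514, 447 and 724 CPM in S cells against 890.3, 558, 510.4, 832 and 830.4 CPM in NS cells. Its log2 change was -0.36 ± 0.15 and it was lower in 4 of 5 animals, with overlapping groups. With the inhibitor Tuba1a had a log2 change of -0.13 ± 0.15 and was lower in 2 of 5 animals.

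Tubb5, the main beta tubulin here, had log2 changes of 0.23 ± 0.15 in S against NS and 0.23 ± 0.15 in S_PI against NS_PI. It averaged 1123 ± 243 CPM in S and 969 ± 245 CPM in NS cells, and 1145 ± 114 CPM in S_PI and 982 ± 196 CPM in NS_PI cells (SD, n = 5 each). The groups overlapped in both comparisons, with Tubb5 higher in stretched cells in 3 of 5 animals without and 4 of 5 with the inhibitor. Tubb6, a beta tubulin noted in other cells for making microtubules less stable, had 431, 153, 215, 199.7 and 226 CPM in S_PI cells, against 148, 127, 147, 236 and 164 CPM in NS_PI cells. It was higher in 4 of 5 animals, mostly through animal 1: its log2 change was 0.53 ± 0.20, and 0.24 without that animal. In S against NS Tubb6 had a log2 change of 0.09 ± 0.20, at 293, 228, 258, 169.8 and 209 CPM in S cells and 217, 186, 187, 279 and 227 CPM in NS cells.

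**Figure D3:**
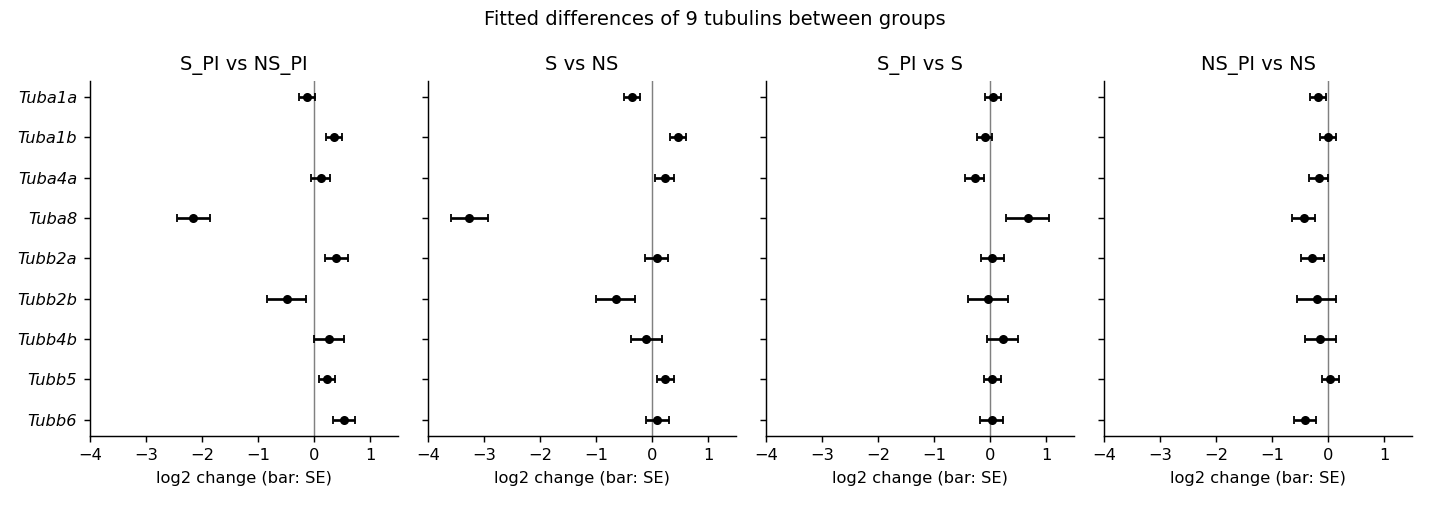
Fitted log2 change of 9 tubulins in S_PI against NS_PI, S against NS, S_PI against S and NS_PI against NS, with bars of 1 standard error (n = 5 animals per group). Tuba8 stands apart in both stretch panels at -2.15 and -3.26, while all other points lie between -0.65 and 0.67.

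For the remaining tubulins the groups overlapped in both stretch comparisons. Tubb2a had log2 changes of 0.08 ± 0.21 in S against NS and 0.40 ± 0.21 in S_PI against NS_PI. In animal 1 it was at 396 CPM in S_PI and 123 CPM in NS_PI cells, and at 328 CPM in S and 171 CPM in NS cells; without animal 1 its log2 change with the inhibitor was 0.06. Tubb2a and Tubb6 were thus both highest in the stretched libraries of animal 1. Tubb4b had log2 changes of -0.10 ± 0.27 and 0.26 ± 0.27, and over all 4 groups it spanned 78.6 to 243 CPM. Tuba4a had log2 changes of 0.22 ± 0.17 and 0.12 ± 0.17, and Tubb2b -0.65 ± 0.35 and -0.49 ± 0.35.

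The animal accounted for more of the variance of log2 CPM than stretch did in 7 of the 9 tubulins. These shares are sums of squares with no scaling by degrees of freedom, and the 5 animals have more of these than stretch. The animal's share would thus tend to be the larger even with no effect, and nothing is read from that count. The animal's share was 66.4% for Tuba4a, 64.3% for Tubb2b and 62.5% for Tuba1a. It was lowest among the 7 for Tubb6 (22.3%) and Tubb4b (19.8%). Stretch accounted for more than the animal in Tuba8 (76.7%) and Tuba1b (49.5%). For Tubb4b 72.4% was residual. Tubb2b in NS cells was at 37.8, 77.5, 265, 649.8 and 499 CPM in animals 1 to 5, and in NS_PI cells at 109, 100.5, 159.8, 331 and 398 CPM. Stretched cells spread less, at 90.0, 121, 129, 151 and 190.2 CPM in S_PI cells and 38.2, 161, 205, 201 and 150.0 CPM in S cells. Animals 4 and 5, with the most Tubb2b in unstretched cells, had lower Tubb2b in both of their stretched libraries, and the log2 change of S against NS was -0.31 without animal 4 and -0.35 without animal 5.

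Tuba4a was lowest in those same animals, at 133 CPM in S and 189.7 CPM in NS cells of animal 4, and at 134 CPM in S and 148 CPM in NS cells of animal 5. In S cells of animals 1 to 3 it was at 375, 359 and 313 CPM, against 297, 226 and 208 CPM in NS cells. Tubb3, the neuronal beta tubulin and no member of the set, had 2 to 54 counts in NS libraries, 0.923 to 29.3 CPM. Markers of other cells differed along the same line: summed fibroblast and smooth muscle markers averaged 10847 and 10320 CPM in animals 4 and 5, against 3641 to 6644 CPM in animals 1 to 3. Summed type I markers averaged 1547 and 1781 CPM in animals 4 and 5, against 4612 to 6046 CPM in animals 1 to 3. The part of these cells in the Tubb2b and Tuba4a levels was not tested.

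**Figure D4:**
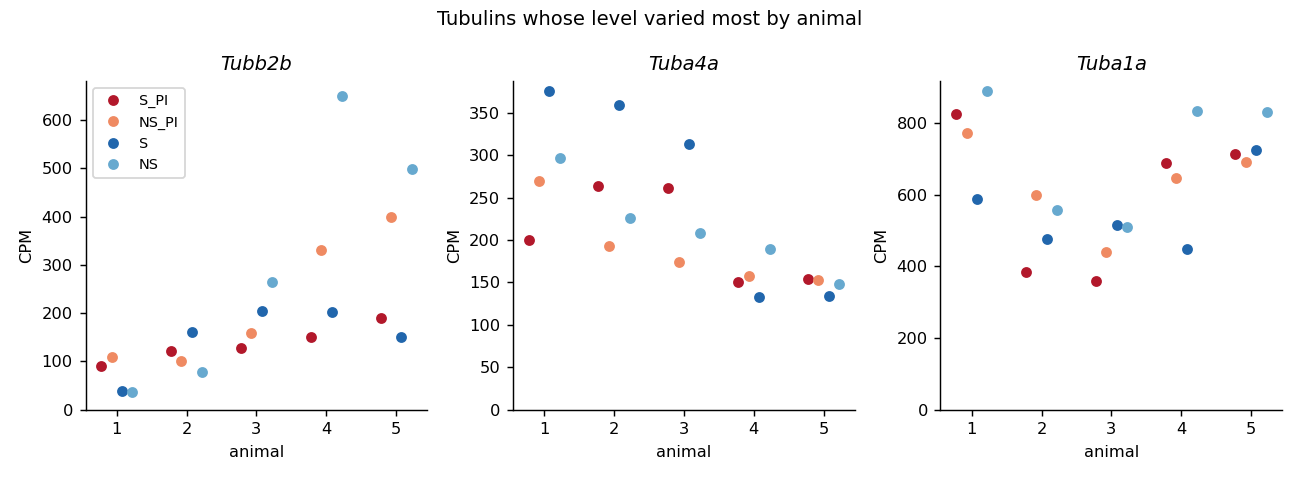
CPM of Tubb2b, Tuba4a and Tuba1a by animal, with 1 point per library coloured by group and the axes starting at 0. Tubb2b of unstretched cells is highest and Tuba4a lowest in animals 4 and 5.

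Together the 10 tubulins took a larger part of all gene counts in S_PI than in NS_PI cells in 5 of 5 animals. Single genes were higher in 5 of 5 animals there in 18.2% of all tested genes. The ratio within an animal was 1.03 to 1.14 there, and 0.854 to 1.38 in S against NS, where 2 of 5 were higher. The SDs below are between animals, and the difference within animals was not tested. The 10 tubulins summed to 0.395 ± 0.0298% of all gene counts in S_PI and 0.369 ± 0.0434% in NS_PI libraries. In S and NS libraries they summed to 0.396 ± 0.0103% and 0.397 ± 0.0708% (SD, n = 5 each). In CPM the sum was 4083 ± 222 in S_PI and 3567 ± 425 in NS_PI, higher in 5 of 5 animals, and 4148 ± 299 in S and 3869 ± 756 in NS, higher in 3 of 5. Within the sum, Tuba1b took 34.1 ± 4.69% in S_PI and 30.7 ± 3.10% in NS_PI, and 35.8 ± 4.32% in S and 28.5 ± 3.55% in NS. Tuba1a, Tuba1b and Tuba1c summed took 48.6% in S_PI and 48.4% in NS_PI, and 49.3% in S and 47.5% in NS. This sum does not depend on how counted reads were split among these near copies. Reads that aligned to several places are missing from it too. Alpha tubulins made up 53.8 ± 1.65% in S_PI and 54.2 ± 4.87% in NS_PI, and 55.6 ± 5.75% in S and 53.9 ± 6.38% in NS. Tuba8 was a minor share throughout, at 0.0817% in S_PI against 0.444% in NS_PI and 0.0533% in S against 0.585% in NS.

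**Figure D5:**
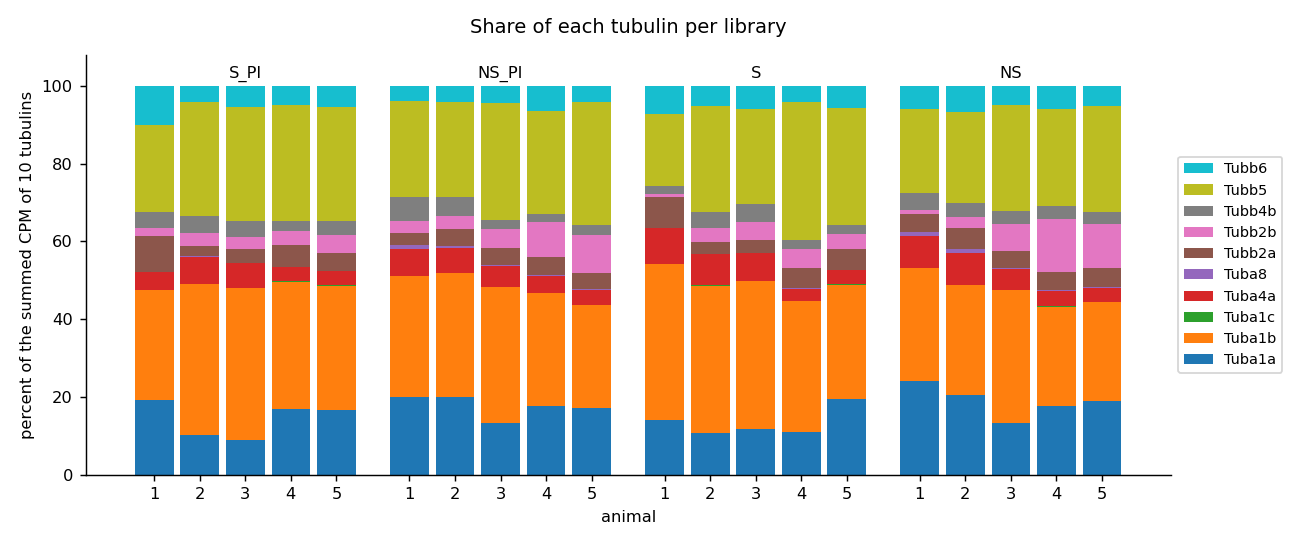
Share of each tubulin in the summed CPM of the 10, as 1 stacked bar per library, in 4 blocks by group with animals 1 to 5 in each. The largest band of every bar is Tuba1b or Tubb5, and Tuba8 is a thin band that is visible only in some NS_PI and NS libraries.

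No tubulin passed in the inhibitor comparisons. The S and NS libraries whose values chose Tuba8 are the other arm of these comparisons and of the interaction. Its values there are thus not free of that choice and are given with no p. Counts of tubulins there include Tuba8 unless it is set apart, and for it they are a description. In NS_PI against NS, 0 of 9 tubulins and 0 of 8320 genes (0%) passed edgeR's quasi-likelihood test at an adjusted p of 0.05, and DESeq2 called 4 genes and 0 tubulins. Of the tubulins other than Tuba8, only Tubb6 had an unadjusted p below 0.05 by that test, beside 5.47% of all tested genes. Tuba8 had 16.0 ± 12.3 CPM in NS_PI and 20.9 ± 12.8 CPM in NS cells (SD, n = 5 each), a log2 change of -0.44 ± 0.21. Tubb6 had 164 ± 42.2 CPM in NS_PI and 219 ± 38.0 CPM in NS cells and was lower in 5 of 5 animals, with a log2 change of -0.42 ± 0.20 (edgeR adjusted p = 0.900). Tubb2a was lower in 5 of 5 animals too, with a log2 change of -0.28 ± 0.21 (edgeR adjusted p = 0.941). A gene was lower in 5 of 5 animals in 6.2% of all tested genes.

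In S_PI against S, 0 of 9 tubulins and 0 of 8320 genes passed by edgeR, and 0 by DESeq2; at an unadjusted p below 0.05 there were 0 tubulins and 340 genes (4.09%). The log2 changes of the tubulins lay between -0.28 for Tuba4a and 0.67 for Tuba8. Tuba8, at 3.31 ± 1.49 CPM in S_PI and 2.22 ± 0.844 CPM in S cells, was near the floor in both.

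The interaction, which is the stretch difference with the inhibitor minus that without, asks whether blocking PERK alters the response to stretch. By edgeR it passed for 0 tubulins and 0 genes, and for 0 genes by DESeq2. At an unadjusted p below 0.05 by edgeR there were 345 genes (4.15%), and none of the tubulins other than Tuba8. For Tuba8 it was 1.10 ± 0.44 on the log2 scale, and 0.71 to 1.32 without each animal in turn. This value holds the S against NS difference that chose Tuba8, so nothing about the inhibitor is read from it. For the other 8 tubulins the interaction lay between -0.11 (Tuba4a) and 0.44 (Tubb6), with adjusted p values at or above 0.984.

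Genes whose levels followed Tuba8 most closely were looked for over the 20 libraries, after each animal's mean log2 CPM was taken out, among the 6978 other genes that averaged 10 CPM or more. They were RGD1563692 (Pearson r = 0.97), Sc5d, an enzyme of cholesterol synthesis (0.96), Snapin, a partner of the membrane fusion machinery (0.96), Irf1, an interferon-responsive transcription factor (0.95), and Dcdc2, a microtubule-binding protein with doublecortin domains (0.95). For Tuba1b they were Eif4a3, a helicase of the exon junction complex, Tprn, Atg101, an autophagy factor, Pygo2, a Wnt coactivator, and Trrap, a scaffold of histone acetyltransferases, each with r = 0.94. These libraries share the same stretch groups, animals and depths, so any gene that differs strongly with stretch ranks high, and no p is given. Among the tubulins themselves, Tuba1b and Tubb5 had r = 0.74, Tubb2a and Tubb6 0.67 and Tuba1b and Tuba8 -0.75, after the same removal of animal means over 20 libraries.

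The genes that fold, modify, bind and move along tubulin were tested in the stretch comparisons, in 10 lists with 138 tested genes. In S against NS 14 rose and 8 fell, 15.9% beside 24.9% of all tested genes. In S_PI against NS_PI 20 rose and 8 fell, 20.3% beside 30.5%. In the inhibitor comparisons and the interaction 0 of these genes passed. Of the other tubulin genes only Tubb3, Tubg1 (gamma tubulin, which nucleates microtubules) and Tube1 (epsilon tubulin, of centrioles) could be tested, and 0 of 3 passed in either stretch comparison; Tuba3a and Tuba3b had 0 counts.

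Dcdc2 had the largest difference among these genes. It fell to 5.69 ± 2.75 CPM in S, against 31.5 ± 15.3 CPM in NS cells, and to 5.96 ± 3.63 CPM in S_PI, against 29.3 ± 9.81 CPM in NS_PI cells, lower in 5 of 5 animals each time (edgeR adjusted p = 1.03e-05 and 9.20e-06). Of 26 tested genes for microtubule binding and plus ends, 3 rose and 2 fell in S against NS and 6 rose and 2 fell in S_PI against NS_PI, with list medians of 0.01 and 0.06. These calls were 19.2% and 30.8% of the list. Mtus1, a microtubule-associated tumour suppressor, fell in S_PI against NS_PI by 0.67 ± 0.17 (edgeR adjusted p = 0.00633). It also fell in S against NS by 0.49 ± 0.18 (edgeR adjusted p = 0.0459), a call whose dependence on the processing was not checked. Clip2, a plus-end linker, rose in S against NS by 0.58 ± 0.21 (edgeR adjusted p = 0.0443), a call lost without animals 1, 2, 3 or 5 in turn (adjusted p = 0.0652 to 0.139).

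Among genes of the spindle 4 of 17 rose and 0 fell in S against NS, and 7 of 17 rose and 0 fell in S_PI against NS_PI, with list medians of 0.28 and 0.46. That was 23.5% of the list beside 24.9% of all tested genes, and 41.2% beside 30.5%. Aurka, a kinase of spindle assembly, was at 33.3 ± 6.13 CPM in S and 21.1 ± 5.95 CPM in NS cells, a log2 change of 0.69 ± 0.18 (edgeR adjusted p = 0.00835), a call lost with the compared groups alone (0.0510) and without the replicate block (0.0589). Kif22, a chromosome-binding kinesin, rose by 0.75 ± 0.23 in S against NS, a call lost without animal 4 or animal 5 (edgeR adjusted p = 0.0201, 0.0857 and 0.145). In S_PI against NS_PI Aurka rose by 0.63 ± 0.18 and Kif22 by 0.89 ± 0.22 too (edgeR adjusted p = 0.0108 and 0.00523). How these further calls depend on the processing was not checked. Ckap2, which binds spindle microtubules, rose in S_PI against NS_PI to 27.3 ± 3.72 CPM in S_PI cells, against 11.7 ± 1.61 CPM in NS_PI cells (log2 change 1.21 ± 0.20, edgeR adjusted p = 0.000153). Kif11, the kinesin that separates the poles, rose in the same comparison by 0.95 ± 0.25 (edgeR adjusted p = 0.00695).

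In the dynein and dynactin list 4 of 24 rose and 2 fell in S against NS, and 2 rose and 1 fell in S_PI against NS_PI, 25% and 12.5% of the list. Pafah1b1 (Lis1) and Ndel1, partners that regulate dynein, rose in both comparisons: Pafah1b1 was at 437 ± 128 CPM in S and 299 ± 13.8 CPM in NS cells (log2 change 0.51 ± 0.15, edgeR adjusted p = 0.0139), and at 453 ± 96.2 CPM in S_PI and 291 ± 24.0 CPM in NS_PI cells (0.61 ± 0.15, 0.00364). For Pafah1b1 the dependence of the S against NS call on the processing was not checked. Ndel1 had log2 changes of 0.64 ± 0.17 and 0.62 ± 0.17 (edgeR adjusted p = 0.0109 and 0.0105), and the calls were lost without animal 2 (0.0511) and without animal 3 (0.0513). Dynlrb2, a dynein light chain, rose in S against NS by 0.83 ± 0.30 (edgeR adjusted p = 0.0476, and 0.106 to 0.123 without animals 2, 3 or 4). Kif16b, a kinesin of early endosomes and the 1 gene of 10 transport kinesins that passed, fell in S against NS by 0.78 ± 0.21 and in S_PI against NS_PI by 0.66 ± 0.20 (edgeR adjusted p = 0.00879 and 0.0150), and both calls were lost without animal 2 (0.0707 and 0.0759), the second also without animal 4 or 5.

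Of 10 nucleation genes Tubgcp5, a subunit of the gamma-tubulin ring complex, fell to 7.01 ± 1.59 CPM in S, against 16.5 ± 2.52 CPM in NS cells. Its log2 change was -1.28 ± 0.27 (edgeR adjusted p = 0.00193), and it was lower in 5 of 5 animals. In S_PI against NS_PI 0 of the 10 passed. Tubgcp5 had a log2 change of -0.64 ± 0.26 there (edgeR adjusted p = 0.0622) and was lower in 4 of 5 animals. Of 8 genes that destabilise or sever microtubules 0 passed in S against NS. In S_PI against NS_PI 2 rose: Kif2a, a depolymerising kinesin, by 0.67 ± 0.16 (edgeR adjusted p = 0.00326) and Stmn2, a stathmin that binds free dimers, by 0.78 ± 0.26 (0.0274, a call lost without animals 1, 4 or 5, at 0.0933, 0.0978 and 0.100). Of 10 genes for tubulin modification 0 passed in S against NS, and in S_PI against NS_PI Agtpbp1, which trims polyglutamate tails, rose by 0.87 ± 0.22 (edgeR adjusted p = 0.00475) and Nicn1, of the polyglutamylase complex, fell by 0.48 ± 0.17 (0.0316, a call lost without animals 1, 2, 3 or 5, at 0.0663 to 0.100).

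Genes that fold tubulin mostly did not pass. Of 19 tested, 1 rose and 1 fell in S against NS and 1 rose and 2 fell in S_PI against NS_PI, 10.5% and 15.8% of the list. Txndc9, a regulator of the chaperonin that folds tubulin and actin, fell in S_PI against NS_PI by 0.70 ± 0.15 (edgeR adjusted p = 0.00139) and in S against NS by 0.48 ± 0.15 (0.0209, a call lost without animals 2, 3, 4 or 5, at 0.0521 to 0.141). Cct3, a subunit of that chaperonin, rose in S against NS by 0.42 ± 0.14 (edgeR adjusted p = 0.0350, and 0.0721 to 0.131 without animals 1, 2, 3 or 4), and Pfdn5, of the prefoldin complex, fell in S_PI against NS_PI by 0.50 ± 0.15 (0.0146, and 0.103 without animal 5). Of 11 genes for the decay of tubulin mRNA and the CCR4-NOT deadenylase, 2 rose and 1 fell in S against NS and 1 rose and 1 fell in S_PI against NS_PI, 27.3% and 18.2% of the list. Cnot4 rose in both, to 21.3 ± 9.22 CPM in S, against 11.2 ± 2.93 CPM in NS cells, and to 18.9 ± 5.92 CPM in S_PI, against 10.9 ± 2.91 CPM in NS_PI cells (edgeR adjusted p = 0.00345 and 0.00716; the call with the inhibitor was lost without animal 3, at 0.0600). Cnot3 rose in S against NS by 0.86 ± 0.23 (edgeR adjusted p = 0.0102).

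Some of these calls were also lost in fits with all animals. With the compared groups alone, the calls of Txndc9, Cct3, Clip2, Dynlrb2, Ndel1 and Kif22 in S against NS (edgeR adjusted p = 0.0599 to 0.126) and of Nicn1 in S_PI against NS_PI (0.0562) were lost. Without the replicate block, those of Txndc9, Cct3, Clip2, Dynlrb2 and Kif22 in S against NS (0.105 to 0.522) and of Cnot4, Nicn1, Mtus1 and Stmn2 in S_PI against NS_PI (0.0741 to 0.303) were lost. With library size only, Cct3, Clip2 and Dynlrb2 in S against NS and Stmn2 in S_PI against NS_PI did not pass (0.0581 to 0.0862). With upper-quartile scaling Cct3, Clip2 and Dynlrb2 in S against NS did not pass (0.0569 to 0.0639), and with no filter on low counts Nicn1 in S_PI against NS_PI did not (0.0554).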

How the data were processed

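The submitters' processing notes name the aligner STAR, the read counter HTSeq, DESeq2 and the rat build rn6, with no role or order. Their versions and the annotation were not given in the sources used here. In the deposited data, the main table holds the authors' raw counts for 17337 symbols in 20 libraries. A second deposited table, of DESeq2 results, holds per the file headers a signal (mean normalized counts), log2 fold changes, a test score and p-values. Its sign was opposite to that of stretched over unstretched cells (Pearson r = -0.99 across 8176 genes). It served only as a check. Tuba8 stands at a log2 fold change of 2.30 ± 0.34 (SE) in the authors' deposited table, whose headers do not name the groups. That is smaller in size than the -3.26 fitted here in S against NS, and the reason was not tested.

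The 5 HTSeq summary entries, which count records and not genes, were dropped (records outside genes 16.2 to 24.5%, ambiguous 0.0872 to 0.145% of records). After filterByExpr and TMM scaling, 8320 genes were fitted in 20 libraries with group and animal as terms, and tested by the quasi-likelihood F test of edgeR 4.0.16 (R 4.3.3) with Benjamini-Hochberg adjustment at 0.05. The replicate number in the labels was taken as the animal: in the 30 same-number pairs of libraries, deviations from group means correlated at 0.316 or more (median 0.476), against a median of -0.17 between other numbers, so the number pairs the samples. Shares of variance and likeness used log2 CPM with a prior count of 2. Alternatives were DESeq2 1.42.0, other scalings, no filter, no replicate block, the compared groups alone and each animal left out. No molecular identifiers are named in the labels, and neither is a sequencing batch, so floors and intervals cover counting error only and a batch could not be examined. Figures used matplotlib 3.10.9.

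The tubulins and gene lists were chosen with earlier results of these data known. From each list the text names at most the 2 called genes with the largest log2 change in each stretch comparison, if they averaged 10 CPM or more.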

Additional observations from a re-analysis of the deposited data

Results flagged for a closer look

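In 3 of the 40 groups of 5 libraries checked (10 tubulins in 4 groups) 1 library stood far from the other 4 for its gap relative to the group's range, where chance gives about 1 in 20 groups, or 2 of 40. Tuba8 in NS_PI cells of animal 1 was at 37.7 CPM, above the other animals at 7.90 to 13.8 CPM. Tubb4b in S_PI cells of animal 4 was at 95.3 CPM, below the other animals at 153 to 176 CPM. Tubb6 in S_PI cells of animal 1 was at 431 CPM, above the other animals at 153 to 226 CPM. The cause was not tested in any of them.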

How the results depend on the processing

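The log2 change of Tuba8, the value that chose it, was -3.43 to -3.08 in S against NS and -2.37 to -1.77 in S_PI against NS_PI over the 12 alternatives. No named list gene changed sign under any alternative in the stretch comparison that named it. Of the tubulins, Tubb2a, Tubb4b and Tubb6 did change sign in S against NS, at log2 changes of -0.12 to 0.17, -0.36 to 0.09 and -0.02 to 0.27. Which tubulins beside Tuba8 were called depended on the setting. In S against NS the 2 tubulins became 1 (Tuba8) without the replicate block and with the compared groups alone, were 1 to 2 with an animal left out, and became 3 (with Tuba1a, lower) with upper-quartile scaling. In S_PI against NS_PI the 2 became 1 (Tuba8) with library size only, upper-quartile scaling, no replicate block and the compared groups alone, were 1 to 2 with an animal left out, and became 3 (with Tuba1b, higher) with DESeq2. Without the replicate block 818 genes were called in S against NS, against 2075 with it, and 1229 in S_PI against NS_PI, against 2534 with it; of the related list genes 9 against 22 and 14 against 28 were called. With the compared groups alone S against NS gave 1048 genes and 6 list genes. With an animal left out S against NS gave 1418 to 1784 genes and 12 to 16 list genes. In NS_PI against NS the 0 genes called became 4 with no filter, 27 with the compared groups alone, 4 with DESeq2, and 0 to 3 with an animal left out. Summing Tuba1a, Tuba1b and Tuba1c in place of Tuba1b gave shares of 48.6% in S_PI, 48.4% in NS_PI, 49.3% in S and 47.5% in NS. With library size only, the median over all tested genes was a log2 change of -0.12 in both stretch comparisons, and 33.6% and 36.3% of the calls were higher, against 50.3% and 49.8% with TMM; with upper-quartile scaling 40.9% and 39% were higher. Tuba8 in stretched cells, at 2 to 8 counts per library, is limited by depth, and its fold there rests on few reads. The causes were not tested.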
